A study of Mus musculus with 9 samples.

Results

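The 10 genes described here encode regulators of energy metabolism in the heart, namely the 3 peroxisome proliferator-activated receptors (Ppara, Ppard and Pparg), their dimer partner Rxra, the coactivators Ppargc1a (PGC-1 alpha) and Ppargc1b (PGC-1 beta), the estrogen-related receptors Esrra and Esrrg, and the mitochondrial biogenesis factors Nrf1 and Tfam. They were chosen by symbol, with earlier results of these data known. All 10 were found among the 22851 genes of the deposited count matrix and passed the filter on low counts in every comparison. RNA of mouse hearts was sequenced in 9 libraries, 3 each of the groups CK, DCM and SPM, to compare the diabetic heart with the healthy heart and the spermine-treated diabetic heart with both. All mice were male C57BL/6J mice of 6 to 8 weeks at the start. The control check group (CK) received citrate buffer. The diabetic cardiomyopathy group (DCM) received a single injection of streptozotocin (STZ) at 180 mg/kg, which destroys the insulin-producing beta cells, and was kept for 12 weeks on a normal diet. The spermine group (SPM) received the same STZ and also spermine, a natural polyamine, at 1 mg/kg per day for 2 weeks before STZ and every other day for the 12 weeks after it. No group received spermine without STZ, so spermine is seen here only on the diabetic background. The mice were fasted overnight before their hearts were collected, so the levels are those of fasted mice. The sources state in one place that 3 mice of each group were used and in another that hearts were mixed in pools of 6, so p-values measure the spread between libraries, whatever each library holds.

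PPARs bind DNA together with a retinoid X receptor and switch on genes for fatty acid uptake, storage and oxidation when fatty acids or their derivatives bind to them. PGC-1 coactivators have no DNA-binding domain of their own and raise the activity of PPARs, estrogen-related receptors (ERRs) and NRF1. ERRs can act without a bound ligand and, with NRF1, drive nuclear genes of the respiratory chain and citric acid cycle. TFAM packages mitochondrial DNA and starts its transcription. In the heart, which burns mostly fatty acids, PPAR alpha, PGC-1 alpha and the ERRs are known as its main metabolic regulators.

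Shown first are the promoters of the 4 genes that passed the test in DCM compared to CK or SPM compared to DCM and have a RefSeq window. They give the DNA before the RefSeq start sites of genes whose RNA is described. Esrrg, which passed in SPM compared to CK only, has windows that are not printed. Each window spans 250 bases before the RefSeq start site in GRCm38.p6, and only the longest stretch outside every GENCODE M21 exon is printed, 5′ to 3′ on the strand of the gene. Capitals mark a match to a searched motif of at least 8 letters. The stretches are Ppara at chr15:85735714-85735775 (plus strand), Ppard at chr17:28232504-28232699 (plus strand), Ppargc1a at chr5:51567727-51567975 (minus strand) and Esrra at chr19:6921814-6922058 (minus strand).
Ppara: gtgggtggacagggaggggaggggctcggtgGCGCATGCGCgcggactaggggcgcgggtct
Ppard: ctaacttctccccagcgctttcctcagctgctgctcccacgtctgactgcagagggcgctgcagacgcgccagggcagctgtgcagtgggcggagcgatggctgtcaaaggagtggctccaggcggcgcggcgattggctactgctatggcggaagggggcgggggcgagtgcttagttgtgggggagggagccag
Ppargc1a: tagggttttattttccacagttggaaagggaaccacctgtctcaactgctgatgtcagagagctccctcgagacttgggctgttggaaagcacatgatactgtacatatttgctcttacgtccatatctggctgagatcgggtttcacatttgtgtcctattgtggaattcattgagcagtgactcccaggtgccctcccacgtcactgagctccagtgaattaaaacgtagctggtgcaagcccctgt
Esrra: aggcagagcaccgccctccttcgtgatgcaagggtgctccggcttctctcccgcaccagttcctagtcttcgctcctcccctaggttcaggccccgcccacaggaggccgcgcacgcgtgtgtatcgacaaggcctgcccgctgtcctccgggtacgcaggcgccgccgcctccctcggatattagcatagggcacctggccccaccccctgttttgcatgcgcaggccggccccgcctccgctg

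RefSeq windows were found for 9 of the 10 genes, 16 windows in all because some genes start at several sites. Both strands of the full windows were searched for 4 longer motifs, and each motif's share is that among 32817 mouse promoter windows of the same length. The palindromic NRF1 motif, present in 3.73% of them, was found only in the Ppara window, as GCGCATGCGC at position -31 from the start site, where it reads the same on both strands. The PPAR and RXR direct repeat of AGGTCA with a spacer of 1 base (0.0335% of windows), the ERR element TCAAGGTCA (0.387%) and the cAMP response element TGACGTCA (1.55%) were found in none of the 16 windows. The shorter receptor element AGGTCA, which is contained in the direct repeat and the ERR element and occurs in 14% of windows, was found in windows of Pparg and Rxra. The windows of Ppara, Ppard and Esrra held 76.4%, 69.6% and 68.4% G and C against a median of 52.4% over all windows, and that of Ppargc1a held 48%. The Ppara window lies inside the GENCODE interval of that gene, past its start at chr15:85734983. These letters describe the windows alone, and binding was not measured.

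Total counts lay between 29901300 and 39718680 per library, of which mitochondrial genes took 13.7% to 16.2% (CK), 15.5% to 18.9% (DCM) and 21.01% to 21.09% (SPM). The 10 genes had between 465 (Pparg) and 8603 (Esrra) counts in a library. Heart is the labelled tissue although an extraction protocol speaks of retinas. The 9 matched cardiomyocyte markers all exceeded 1 CPM in every library, while 8 of 9 matched retina markers stayed under 1 CPM in every library and only Rom1 was above it. SPM replicate 2 stood apart from independent replicates. Its value lay between those of the other SPM libraries for 60.4% of genes, compared to 16.5% to 34.3% for the other 8 libraries, and it alone had a count within its group for only 30 of the 2656 genes without a count in its group mates, compared to 485 to 1162 genes in the others. Whether it is a separate sample is therefore in doubt, and results on SPM are given with and without it.

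Per-library values are counts scaled to the library total after TMM normalization (CPM), which compare 1 gene between libraries. Levels of different genes were compared as FPKM, the deposited values, which are also divided by gene length. Esrra was the most abundant regulator at 91.7 FPKM over the 9 libraries, with a range of 79.2 to 102 FPKM. Rxra followed at 26.9 FPKM (24.9 to 30.1). The ranges of these 2 genes overlapped neither each other nor that of any other regulator. Below them lay, by mean FPKM, Ppargc1a at 11.6, Ppara at 10.3, Ppard at 8.82, Tfam at 7.67, Pparg at 7.65, Esrrg at 7.54, Ppargc1b at 7.52 and Nrf1 at 6.55. Among these 8 genes the ranges of all neighbours in the order overlapped.

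**Figure D1:**
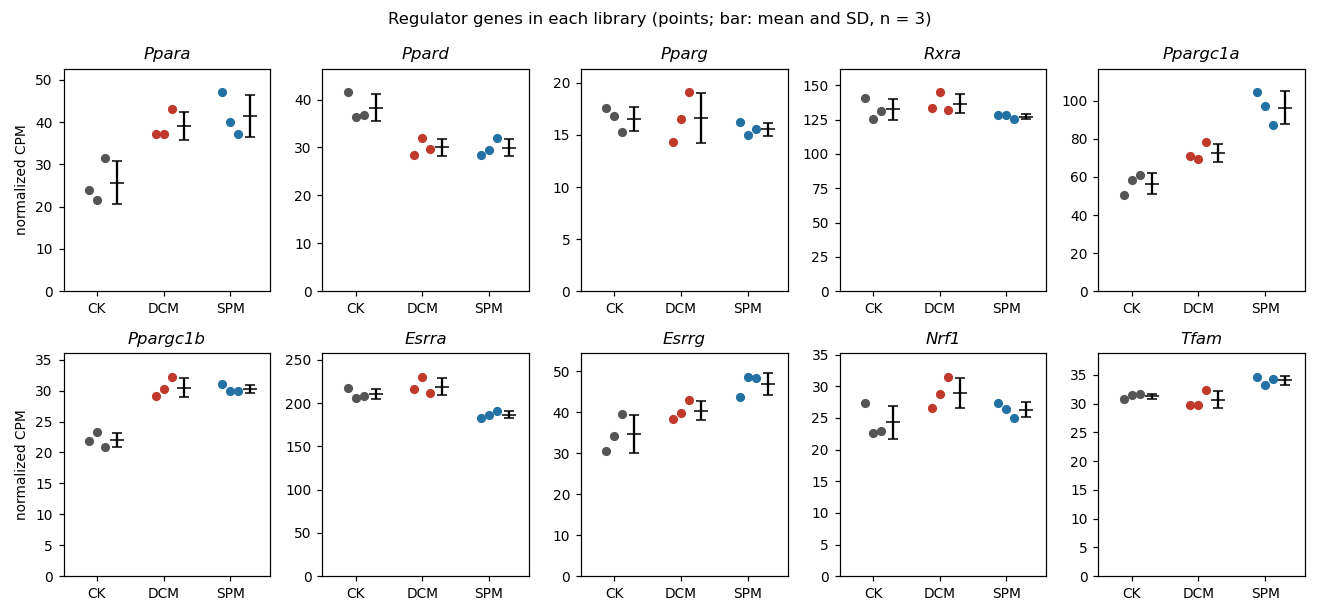
Normalized CPM (vertical axis, from 0) of the 10 regulators in each CK, DCM and SPM library, shown as points, with the mean and SD of 3 libraries beside them. Ppargc1a is lowest in CK (50.5 to 60.8 CPM), higher in DCM (69.2 to 78.1 CPM) and highest in SPM (87.4 to 104.3 CPM), while Esrra is lowest in SPM.

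DCM compared to CK asked how the regulators differ in the diabetic heart. Ppara, Ppargc1a and Ppargc1b were upregulated and Ppard was downregulated, and the other 6 did not pass the test. By the edgeR quasi-likelihood test with Benjamini-Hochberg adjustment over all genes tested, 4 of 10 regulators had an adjusted p below 0.05, compared to 10.4% of the 14402 genes tested. With the further limit of a 1.5-fold change, which defines a differentially expressed gene (DEG), only Ppara was called, compared to 4.34% of genes. The groups did not overlap for 4 of 10 regulators, the same 4, compared to 29.3% of genes. In whole tissue, a smaller number of cells of a type and less RNA per cell cannot be told apart.

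Ppara (ENSMUSG00000022383, chr15:85734983-85802819) encodes the PPAR that drives fatty acid oxidation in heart and liver. Its level was 23.9, 21.7 and 31.5 CPM in CK and 37.1, 37.1 and 43.0 CPM in DCM. Every DCM library lay above every CK library, and CK replicate 3 was the closest to them. The level rose 1.53-fold, with a log2 fold change of 0.61 ± 0.13 (SE) and an edgeR adjusted p of 0.00878. The adjusted p stayed below 0.05 under each of the 16 alternatives run, and the change was under 1.5-fold without CK replicate 1 (log2 0.56), without CK replicate 2 (0.50), without DCM replicate 3 (0.54) and by limma on FPKM plus 0.1 (0.53) or plus 1 (0.48). Liver markers summed to 21.6 to 91.9 CPM in CK and 36.1 to 44.2 CPM in DCM, with albumin (Alb) at 1.07 to 28.2 CPM in CK and 0.264 to 0.352 CPM in DCM. Of the 6 liver genes tested, 1 was upregulated and 1 downregulated in this comparison (median log2 -0.98), and their part in the change of Ppara was not tested.

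Ppard (ENSMUSG00000002250, chr17:28232700-28301474), the PPAR present in most tissues, was measured at 41.5, 36.4 and 36.8 CPM in CK and 28.3, 32.0 and 29.7 CPM in DCM. All DCM libraries lay below all CK libraries. It fell by 0.35 ± 0.086 (SE) on the log2 scale (edgeR adjusted p = 0.0218), and the call was lost without CK replicate 1 (log2 -0.29), DCM replicate 1 (-0.30) or DCM replicate 3 (-0.34). Pparg (ENSMUSG00000000440, chr6:115360951-115490399), the fat cell PPAR, was the PPAR with the fewest counts. Its CPM values were 17.6, 16.8 and 15.3 in CK and 14.3, 16.6 and 19.1 in DCM, with DCM on both sides of CK and a log2 fold change of 0.01 ± 0.12 (SE, edgeR adjusted p = 0.981). The fat cell marker Adipoq lay between 1.41 and 13.2 CPM over the 9 libraries, and CK replicate 2, which had the 13.2 CPM, had 16.8 CPM of Pparg. Of 10 fat cell markers tested in DCM compared to CK, 2 were upregulated and 0 downregulated (median log2 -0.09). At an unadjusted p below 0.05 by edgeR, 1 was lower. Among all genes 5.28% were higher and 5.11% lower. The part of fat cells in the level of Pparg was not tested.

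Because the PPARs moved in different directions, their proportions were computed within each library, as a description chosen after the values were seen. Ppara made up 26.5%, 26.4% and 35.1% of the summed FPKM of the 3 PPARs in CK and 43.2%, 39.9% and 42.7% in DCM. The share of Ppard was 42.2%, 40.7% and 37.6% in CK and 30.1%, 31.5% and 27.0% in DCM. Ppard was thus the more abundant of the pair in every CK library and Ppara in every DCM library. Rxra (ENSMUSG00000015846, chr2:27676440-27762957), with which all PPARs pair, had 140.7, 125.4 and 131.4 CPM in CK and 133.4, 144.8 and 131.8 CPM in DCM. Its groups overlapped, with a log2 fold change of 0.05 ± 0.073 (SE, edgeR adjusted p = 0.769).

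Both PGC-1 coactivators were upregulated. Ppargc1a (ENSMUSG00000029167, chr5:51454250-51567726), which is induced by cold, fasting and exercise in several tissues, was at 50.5, 58.1 and 60.8 CPM in CK and at 70.8, 69.2 and 78.1 CPM in DCM. It rose 1.29-fold (log2 0.37 ± 0.086 SE, edgeR adjusted p = 0.0178), with no overlap between the groups. The call was lost without CK replicate 2 (log2 0.39, adjusted p = 0.0523 by edgeR), without DCM replicate 3 (0.32, adjusted p = 0.0762 by edgeR) and by limma on log2 FPKM with either pseudocount (0.27 and 0.25). Ppargc1b (ENSMUSG00000033871), the coactivator that shares most targets with Ppargc1a, was at 21.9, 23.2 and 20.9 CPM in CK and at 29.1, 30.2 and 32.2 CPM in DCM. It rose 1.38-fold (log2 0.47 ± 0.086 SE, edgeR adjusted p = 0.00455), and this call held under each of the 16 alternatives. 

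Of the chosen regulators, the ERRs Esrra and Esrrg and the mitochondrial factors Nrf1 and Tfam did not pass the test in DCM compared to CK. Esrrb, an ERR listed among the partners and not among these regulators, was upregulated in that comparison and is described with the partners below. Esrra (ENSMUSG00000024955, chr19:6910977-6921813), the most abundant ERR of these hearts, had 217.3, 206.2 and 207.6 CPM in CK and 216.2, 229.7 and 211.3 CPM in DCM (log2 0.06 ± 0.069 SE, edgeR adjusted p = 0.661). Esrrg (ENSMUSG00000026610, chr1:187608791-188214885), an ERR of oxidative muscle and heart, had 30.4, 34.2 and 39.5 CPM in CK and 38.3, 39.9 and 42.9 CPM in DCM (log2 0.22 ± 0.099 SE, edgeR adjusted p = 0.195). Both genes overlapped between the groups. Nrf1 (ENSMUSG00000058440, chr6:30047988-30153458), which activates nuclear genes for respiration, had 27.4, 22.7 and 22.9 CPM in CK and 26.6, 28.8 and 31.4 CPM in DCM (log2 0.25 ± 0.10 SE, edgeR adjusted p = 0.146). Without CK replicate 1, the highest CK library, its log2 fold change was 0.34 and passed the test. Tfam (ENSMUSG00000003923, chr10:71225464-71238280) had the narrowest range in CK, at 30.7, 31.5 and 31.6 CPM, and had 29.8, 29.7 and 32.4 CPM in DCM (log2 -0.03 ± 0.079 SE, edgeR adjusted p = 0.876).

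**Figure D2:**
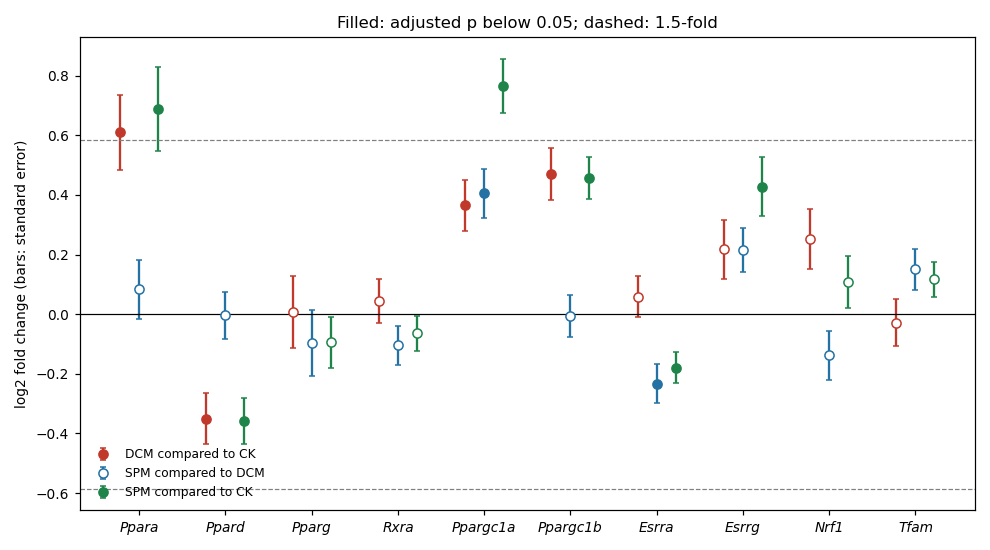
Log2 fold change (vertical axis, bars showing the standard error) of each regulator in DCM compared to CK, SPM compared to DCM and SPM compared to CK, filled where the edgeR adjusted p was below 0.05, with dashed lines at 1.5-fold. Filled points are 4 in DCM compared to CK, 2 in SPM compared to DCM and 6 in SPM compared to CK, and Ppara and Ppargc1a are the only genes to cross a dashed line.

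SPM compared to DCM asked what differs when the diabetic mice also received spermine. Ppargc1a was upregulated further and Esrra was downregulated, and the other 8 regulators did not pass the test. These 2 of 10 genes compare to 16.6% of the 14493 genes tested at an adjusted p below 0.05, and no regulator was a DEG, compared to 3.59% of genes. The groups did not overlap for 5 regulators (Ppargc1a, Rxra, Esrra, Esrrg and Tfam), compared to 39.2% of genes. DESeq2 gave 0 DEGs among the regulators too, and at an unadjusted p below 0.05 the edgeR test held 3, the third being Esrrg. Without SPM replicate 2, 0 of the 10 regulators had an edgeR adjusted p below 0.05, 2 had an unadjusted p below it, and 72 of all genes passed.

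Ppargc1a was at 104.3, 97.4 and 87.4 CPM in SPM, above the 69.2 to 78.1 CPM of DCM in every library. It rose 1.32-fold (log2 0.41 ± 0.082 SE, edgeR adjusted p = 0.0150). The call was lost without SPM replicate 2 (log2 0.40, edgeR adjusted p = 0.0708), without DCM replicate 1 (0.38, edgeR adjusted p = 0.0591) and without DCM replicate 2 (0.37, edgeR adjusted p = 0.0707). It was also lost with an offset for the G and C content of transcripts, which lowered the log2 fold change to 0.12 (edgeR adjusted p = 0.392). Across 14484 genes of these shared 6 libraries, the log2 fold change in SPM compared to DCM went with lower G and C content (Spearman's rho = -0.502), compared to 0.0602 in DCM compared to CK. Ppargc1a had the lowest G and C content of the 10 regulators, 41.7%, and Ppargc1b the highest, 57.8%. The part of G and C content in the Ppargc1a difference was not tested beyond this offset.

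Esrra was at 182.8, 186.5 and 190.3 CPM in SPM, below all 3 DCM libraries (211.3 to 229.7 CPM) and all 3 CK libraries. It fell by 0.23 ± 0.065 (SE) on the log2 scale in SPM compared to DCM (edgeR adjusted p = 0.0377). The value moved little among the alternatives, from -0.27 to -0.20, but the call was lost with the G and C offset, without SPM replicate 2 (log2 -0.23, edgeR adjusted p = 0.181) and without each other library save DCM replicate 3. Trmt112 overlaps Esrra on the opposite strand at a mean of 21.5 CPM, and the strand setting of the counting is not given in the sources used here, so their reads may not be fully told apart. Cardiomyocyte markers moved beside Esrra, with 2 of 9 downregulated, 0 upregulated and a median log2 fold change of -0.18 in the same comparison, beside 7.76% of all genes lower. These counts were 0 and 0 without SPM replicate 2 (2 lower at an unadjusted p below 0.05 by edgeR), 0 and 0 with the G and C offset, and 4 lower by DESeq2. The part of these markers in the change of Esrra was not tested.

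**Figure D3:**
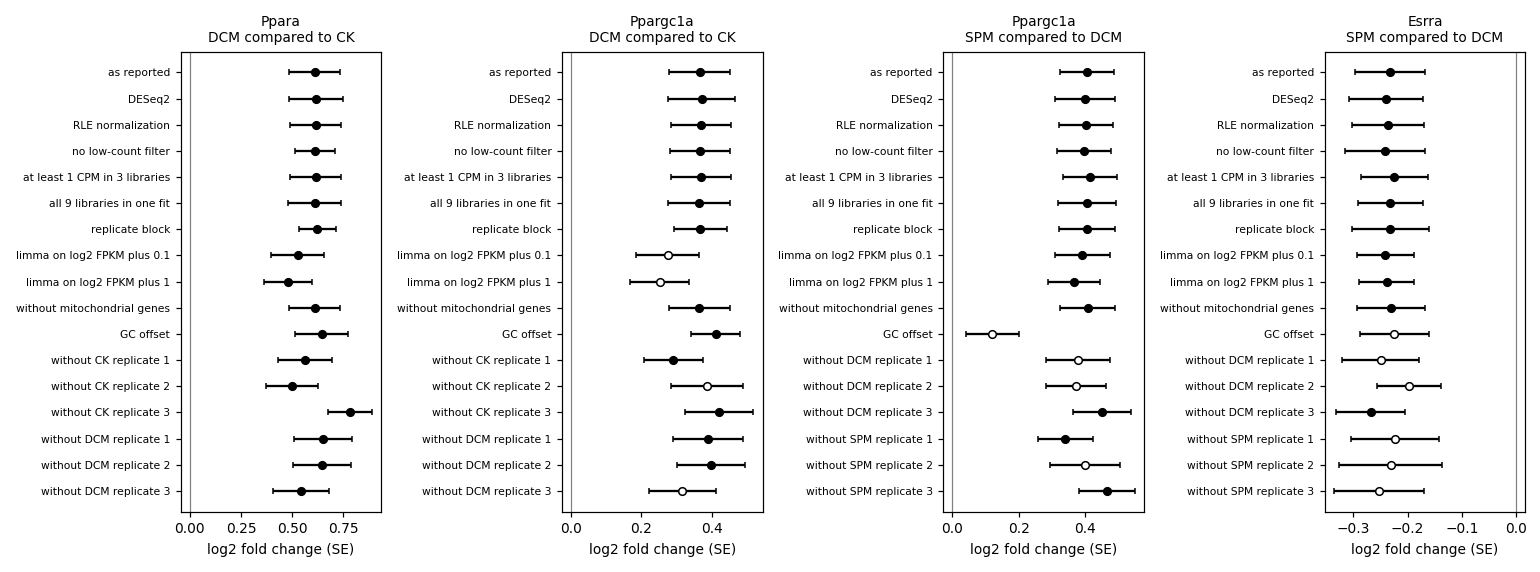
Log2 fold change with its standard error (horizontal axis) of Ppara and Ppargc1a in DCM compared to CK and of Ppargc1a and Esrra in SPM compared to DCM, as reported and under each alternative (rows), filled where the adjusted p was below 0.05. The direction is the same in every row, and the Ppargc1a value in SPM compared to DCM drops from 0.41 to 0.12 with the G and C offset.

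The remaining regulators of SPM stayed near DCM. Ppara was at 47.0, 40.1 and 37.1 CPM in SPM, with a log2 fold change from DCM of 0.08 ± 0.098 (SE, edgeR adjusted p = 0.582). Leaving out 1 library at a time gave Ppara log2 fold changes from -0.02, without SPM replicate 1, to 0.15. Liver markers differed widely among the SPM libraries, with albumin at 247.6, 113.2 and 0.293 CPM and a summed liver level of 44.5 to 412.5 CPM. Of the 7 liver genes tested, 6 were upregulated and 0 downregulated in this comparison, beside 8.87% higher and 7.76% lower among all genes. Without SPM replicate 2, 2 were upregulated. The part of liver RNA in the value of Ppara was not tested. Ppard (28.4, 29.4 and 31.9 CPM) and Ppargc1b (31.1, 30.0 and 29.9 CPM) had log2 fold changes of -0.0035 ± 0.079 (SE) and -0.0072 ± 0.071 (SE). Both still lay apart from CK in every library. Esrrg reached 43.7, 48.5 and 48.4 CPM, above every DCM library, but did not pass the test (log2 0.22 ± 0.075 SE, edgeR adjusted p = 0.0726), and the G and C offset gave -0.04. Pparg (16.2, 15.0 and 15.5 CPM), Rxra (128.2, 128.2 and 125.4 CPM), Nrf1 (27.4, 26.4 and 25.0 CPM) and Tfam (34.6, 33.1 and 34.3 CPM) differed from DCM by log2 values between -0.14 and 0.15, and none passed.

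SPM compared to CK asked how the treated diabetic heart differs from the healthy heart. It shares its CK libraries with DCM compared to CK and its SPM libraries with SPM compared to DCM. Ppara, Ppargc1a, Ppargc1b and Esrrg were upregulated and Ppard and Esrra were downregulated. These 6 of 10 regulators compare to 27.4% of the 14574 genes tested, and the 2 DEGs, Ppara and Ppargc1a, compare to 9.21% of genes. The groups did not overlap for 7 regulators, the 6 that passed and Tfam, compared to 46.3% of genes.

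Ppargc1a was 1.70-fold higher in SPM than in CK (log2 0.76 ± 0.092 SE, edgeR adjusted p = 0.00129). Its adjusted p was below 0.05 under each of the 16 alternatives, SPM replicate 2 left out among them (log2 0.76), and only the value with the G and C offset, 0.53, was under 1.5-fold. Ppara was 1.61-fold higher (log2 0.69 ± 0.14 SE, edgeR adjusted p = 0.00907), and 0.71 without SPM replicate 2 (edgeR adjusted p = 0.0303). Ppargc1b rose by 0.46 ± 0.071 (SE) on the log2 scale (edgeR adjusted p = 0.00315), and by 0.47 without SPM replicate 2. The adjusted p of these 3 genes was below 0.05 in every alternative run.

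The other 3 calls of SPM compared to CK were less firm. Ppard fell by 0.36 ± 0.077 (SE) on the log2 scale (edgeR adjusted p = 0.0111), and without SPM replicate 2 its log2 fold change was -0.34 with an edgeR adjusted p of 0.0675. Esrrg had a log2 fold change of 0.43 ± 0.099 (SE, edgeR adjusted p = 0.0148), which became 0.40 without SPM replicate 2 (edgeR adjusted p = 0.0675) and 0.22 with the G and C offset (edgeR adjusted p = 0.0826). Esrra had -0.18 ± 0.052 (SE, edgeR adjusted p = 0.0343), and without SPM replicate 2 the same value had an edgeR adjusted p of 0.166. With the G and C offset, 3 regulators were upregulated and only 1 was downregulated at an edgeR adjusted p below 0.05. Over all genes, the log2 fold change of SPM compared to CK went with lower G and C content (Spearman's rho = -0.366). Of the 9 cardiomyocyte markers, 6 were downregulated and 1 was upregulated in the same comparison (median log2 -0.26), beside 14.3% lower and 13.0% higher among all genes. Leaving out SPM replicate 2 gave 1 downregulated and 0 upregulated marker (1 higher at an unadjusted p below 0.05 by edgeR, and 1 called by DESeq2 on all libraries), and the G and C offset gave 3 and 1. Their part in the change of Esrra was not tested.

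The balance between related regulators was then described within each library, with no test because the pairs were chosen after the values were seen. The FPKM of Ppargc1a was 1.31, 1.41 and 1.65 times that of Ppargc1b in CK, 1.38, 1.3 and 1.37 times in DCM, and 1.90, 1.83 and 1.65 times in SPM. CK and DCM overlapped, and the SPM values were the highest, with SPM replicate 3 at the level of CK replicate 3. The FPKM of Esrra was 17.1, 14.4 and 12.6 times that of Esrrg in CK, 13.5, 13.8 and 11.8 times in DCM and 10.02, 9.22 and 9.42 times in SPM. All SPM libraries thus lay below the other 6, while CK and DCM overlapped. These ratios carry no correction for G and C content. With the G and C offset the log2 fold change of SPM compared to DCM was 0.12 for Ppargc1a and 0.15 for Ppargc1b, and it was -0.22 for Esrra and -0.04 for Esrrg.

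**Figure D4:**
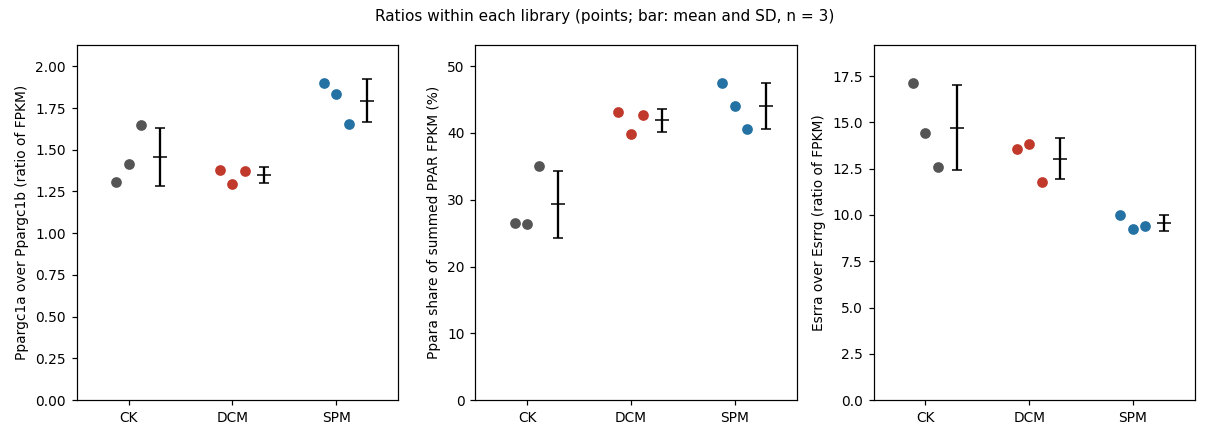
Ratio of Ppargc1a to Ppargc1b FPKM, share of Ppara in the summed PPAR FPKM (percent) and ratio of Esrra to Esrrg FPKM (vertical axes, from 0) in each CK, DCM and SPM library, with the mean and SD of 3 libraries. The Ppara share is 26.4% to 35.1% in CK and 39.9% to 47.5% in the 6 diabetic libraries, and the Esrra to Esrrg ratio is 9.22 to 10.02 in SPM and 11.8 to 17.1 in the others.

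Genes known as targets or partners of the regulators, or from related processes, were then counted, from lists written with earlier results of these data known. Of 30 listed PPAR targets, 28 were matched and tested. In DCM compared to CK, 19 of the 28 were upregulated and 3 downregulated at an adjusted p below 0.05, with a median log2 fold change of 0.44, compared to 5.28% higher and 5.11% lower among all genes and a median of -0.0025. The most abundant target was Fabp3, which carries fatty acids in the cytosol, at 3424 to 3828 CPM in CK and 4499 to 5339 CPM in DCM (log2 0.41 ± 0.088 SE, edgeR adjusted p = 0.0105). Ech1 and Acaa2, enzymes of fatty acid oxidation, rose by 0.80 and 0.53 on the log2 scale. Acot1, a thioesterase that splits acyl-CoA, rose 2.22-fold (log2 1.15 ± 0.090 SE, edgeR adjusted p = 1.26e-05).

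The 3 PPAR targets that fell in DCM compared to CK were Angptl4, Ucp3 and Pdk4, the last named after its values were seen. Angptl4, a secreted inhibitor of lipoprotein lipase, went from 139.3, 132.8 and 106.8 CPM in CK to 84.9, 67.0 and 74.0 CPM in DCM (log2 -0.74 ± 0.11 SE, edgeR adjusted p = 0.00103). Ucp3, a mitochondrial carrier known from fatty acid handling, fell by 0.61 on the log2 scale, and Pdk4, the kinase that shuts off pyruvate dehydrogenase, fell by 0.44. All 3 lay below CK in every DCM library, so the list did not move in a single direction.

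In SPM compared to DCM, 0 of the 28 PPAR targets were upregulated and 10 were downregulated, with a median log2 fold change of -0.19, compared to 8.87% higher and 7.76% lower among all genes and a median of 0.0057. At an unadjusted p below 0.05 the edgeR test had 1 higher target, and DESeq2 called 1. Without SPM replicate 2, 2 targets passed, both lower. Plin2, which coats lipid droplets, kept its call, going from 153.8, 178.8 and 147.2 CPM in DCM to 89.4, 95.4 and 108.5 CPM in SPM (log2 -0.71 ± 0.095 SE, edgeR adjusted p = 0.00786). Angptl4 fell further, to 25.2, 40.7 and 52.3 CPM (log2 -0.94 ± 0.20 SE, edgeR adjusted p = 0.0184), Ehhadh, an enzyme of peroxisomal fatty acid oxidation, fell by 0.64 and Acot1 by 0.47. Without SPM replicate 2 these 3 kept their size, at -0.96, -0.63 and -0.47, but had edgeR adjusted p-values of 0.0573, 0.0520 and 0.0566.

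In SPM compared to CK, 19 PPAR targets were upregulated and 5 downregulated (median log2 fold change 0.32), compared to 13.0% and 14.3% of all genes, and without SPM replicate 2 these counts were 14 and 5. Angptl4 had a log2 fold change of -1.69 ± 0.23 (SE). Ucp3 fell by 0.97 on the log2 scale. Vnn1, which makes pantothenic acid from pantetheine, was a DEG at 1.32 ± 0.42 (SE, edgeR adjusted p = 0.0477) but had as few as 8 counts in a library and lost the call in 13 alternatives.

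The targets of ERRs and PGC-1, are mostly genes of the citric acid cycle and respiratory chain. In DCM compared to CK, 2 of 27 tested were upregulated and 1 downregulated, with a median log2 fold change of 0.09, compared to 5.28% higher and 5.11% lower among all genes. DESeq2 called 5 higher, and leaving out any 1 library left 0 or 1 higher by edgeR. The most abundant of them, Atp5b, the catalytic beta subunit of ATP synthase, had 6766 to 7269 CPM in CK and 7310 to 8011 CPM in DCM and did not pass (log2 0.10 ± 0.078 SE, edgeR adjusted p = 0.486). Neither did Slc25a4, the ADP and ATP carrier (0.24), nor Ckmt2, the mitochondrial creatine kinase (-0.10). Fndc5, the precursor of irisin and a known PGC-1 alpha target, was the downregulated gene, at 364.4 to 377.9 CPM in CK and 247.5 to 266.5 CPM in DCM (log2 -0.53 ± 0.069 SE, edgeR adjusted p = 0.000463). Fndc5 thus moved opposite to Ppargc1a in the same libraries. Of the 27 genes tested, 22 had a log2 fold change above 0 and 5 below 0, called or not, while the median over all genes was -0.0025.

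In SPM compared to DCM, 2 of 28 ERR and PGC-1 targets were upregulated and 5 downregulated (median log2 fold change -0.15), and 2 and 12 by DESeq2. Without SPM replicate 2, 0 and 0 passed by edgeR (2 and 6 at an unadjusted p below 0.05), and with the G and C offset 0 and 1 did. Ckmt2 was among the 5 at -0.26 ± 0.078 (SE, edgeR adjusted p = 0.0474). In SPM compared to CK, 1 of 27 was upregulated and 7 downregulated (median -0.07), and without SPM replicate 2 these counts were 0 and 3. Fndc5 was the only DEG of the list there, at 203.3, 237.9 and 266.1 CPM in SPM (log2 -0.65 ± 0.092 SE, edgeR adjusted p = 0.00216). Ckmt2 fell by 0.36 on the log2 scale. The shares among all genes were 8.87% higher and 7.76% lower in SPM compared to DCM and 13.0% and 14.3% in SPM compared to CK.

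**Figure D5:**
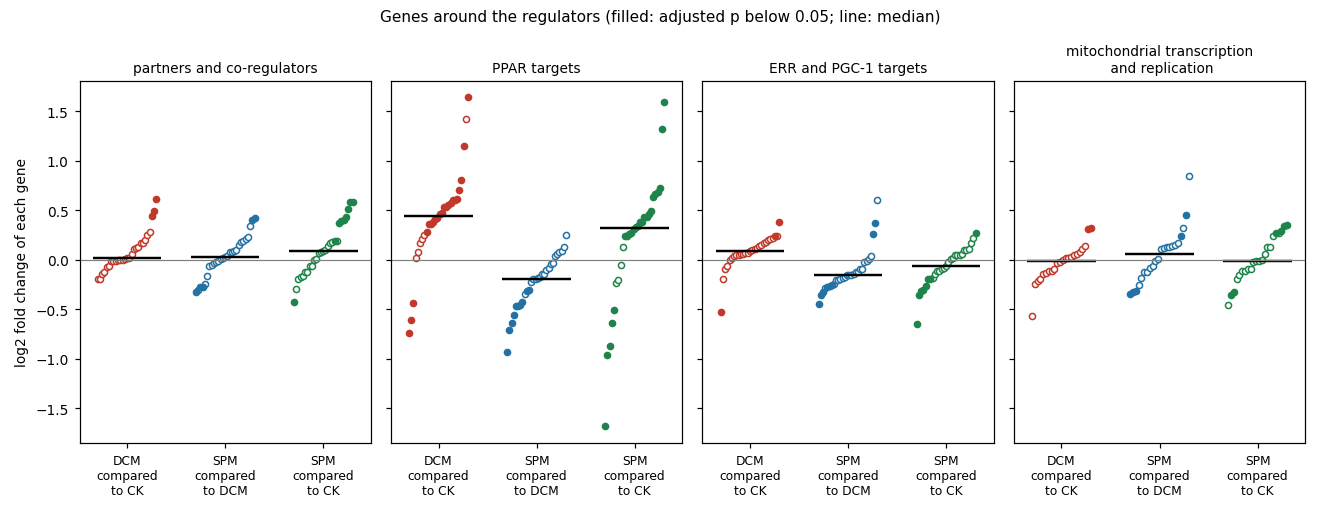
Log2 fold change (vertical axis) of each tested gene of 4 lists in the 3 comparisons, sorted within a comparison, filled where the edgeR adjusted p was below 0.05, with the median as a black line. PPAR targets lie mostly above 0 in DCM compared to CK (median 0.44) and mostly below 0 in SPM compared to DCM (median -0.19), comparisons that share the DCM libraries, while the medians of the other lists lie between -0.15 and 0.09.

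Genes of mitochondrial transcription, replication and import gave 2 of 22 upregulated and 0 downregulated in DCM compared to CK. They gave 2 and 3 in SPM compared to DCM, and 4 and 2 in SPM compared to CK. The shares higher and lower among all genes were 5.28% and 5.11%, 8.87% and 7.76%, and 13.0% and 14.3% in the same order. The medians were -0.01, 0.06 and -0.01 on the log2 scale. DESeq2 called 0 lower in DCM compared to CK as well, where 2 were lower at an unadjusted p below 0.05 by edgeR. Without SPM replicate 2, no gene of the list passed by edgeR in either comparison of SPM, with 6 at an unadjusted p below 0.05 in each. SPM compared to DCM also gave 0 and 0 without DCM replicate 1, without DCM replicate 2 and with the G and C offset, which left 1 and 2 in SPM compared to CK. In DCM compared to CK, leaving out any 1 library left 0 or 1 higher. Of its 3 most abundant genes, Timm23, a part of the inner membrane import channel, and Lrpprc, which stabilizes mitochondrial mRNA, passed in none of the comparisons by edgeR. Lonp1, the matrix protease known to degrade TFAM, had 208.2, 246.7 and 205.9 CPM in the DCM libraries against 161.4, 175.5 and 192.4 CPM with spermine, and fell by 0.32 ± 0.092 (SE) on the log2 scale (edgeR adjusted p = 0.0407), and by 0.18 with the G and C offset (edgeR adjusted p = 0.228).

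Among 27 partners and co-regulators, 3 were upregulated in DCM compared to CK and 0 downregulated, 2 and 3 were called in SPM compared to DCM, and 8 and 1 in SPM compared to CK, with medians of 0.01, 0.03 and 0.09. Among all genes 5.28% and 5.11%, 8.87% and 7.76%, and 13.0% and 14.3% were higher and lower in these comparisons. The 0 downregulated stands beside 1 at an unadjusted p below 0.05 by edgeR and 0 by DESeq2. Without SPM replicate 2 the counts by edgeR were 0 and 0 in SPM compared to DCM (3 and 4 at an unadjusted p below 0.05) and 4 and 1 in SPM compared to CK. The G and C offset (2 and 2 at an unadjusted p below 0.05) and leaving out DCM replicate 2 also gave 0 and 0 in SPM compared to DCM. Klf15, a transcription factor that acts with PPAR alpha in heart, was at 87.8, 79.7 and 94.6 CPM in CK and 109.8, 132.2 and 127.3 CPM in DCM (log2 0.50 ± 0.089 SE, edgeR adjusted p = 0.00398). Cry2, a clock repressor that also binds nuclear receptors, was the only DEG of the list in DCM compared to CK (0.62 ± 0.11 SE, edgeR adjusted p = 0.00488). Esrrb, the third ERR, was named after its values were seen as the remaining called gene. It went from 42.3, 40.8 and 44.4 CPM in CK to 57.8, 60.3 and 54.8 CPM in DCM (0.44 ± 0.074 SE, edgeR adjusted p = 0.00282) and stayed at 55.9, 55.1 and 58.3 CPM in SPM. Perm1, a muscle regulator induced by PGC-1 and ERRs, did not pass in any comparison. Mef2d, a factor of the Ppargc1a promoter, fell by 0.27 on the log2 scale in SPM compared to DCM and lost the call without SPM replicate 2 and with the G and C offset.

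The genes whose log2 CPM over the 9 libraries was most like that of a regulator were found among 12609 genes, for the 3 regulators with the largest change. For Ppargc1a these were Etfrf1, Rbm24 and Cobll1, with Pearson's r of 0.994, 0.993 and 0.991. Rbm24, a muscle splicing factor, had means of 119.8 CPM in CK, 150.4 CPM in DCM and 202.5 CPM in SPM. For Ppara they were Gm12966, Nipsnap2 and Naca (r = 0.984, 0.980 and 0.968), and for Ppargc1b they were Cpeb1, Tob1 and Tac1 (r = 0.980, 0.979 and 0.977). Tob1, an antiproliferative protein, had means of 47.2 CPM in CK, 61.2 CPM in DCM and 64.0 CPM in SPM. These libraries fall into 3 groups that the genes share, so the values describe likeness in these libraries alone. The search was not repeated without SPM replicate 2 or with the G and C offset.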

How the data were processed

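RNA of 9 heart libraries was sequenced, and each library took its group from its label. The authors filtered the reads with fastp 0.18.0 and deposited raw counts, whole numbers per gene, beside FPKM values, which equal count over library total and 1 length per gene. The submitters' processing notes name Bowtie 0.12.2 and the builds mm8 and mm9 with no role. The counting tool is not given in the sources used here. No batch is labelled.

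Of 22851 identifiers, 22820 matched GENCODE M21 (GRCm38). Pairs of groups were compared by edgeR 4.0.16 (R 4.3.3) with its quasi-likelihood test, filterByExpr and TMM, on 6 libraries each, with Benjamini-Hochberg adjustment over all genes tested. A DEG had an adjusted p below 0.05 and a 1.5-fold change, the limits of the study's methods. Standard errors are the log2 fold change over the root of F. Alternatives used DESeq2 1.42.0 and limma 3.58.1, on log2 of FPKM plus 0.1 or 1. Steps were tested on simulated data. Promoters are RefSeq windows of GRCm38.p6.

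The members and lists were chosen with earlier results of these data known. Named were all members, the 3 most abundant genes of each list, up to 4 DEGs per list and comparison, and the 3 genes most like each of the 3 most changed members. Listed symbols without a match (Cpt1b and Txnip among PPAR targets) were not analysed here. Marker sums, in CPM and in the order CK, DCM, SPM, were 2067 to 2168, 1402 to 1498 and 1650 to 1729 for fibroblasts, 692 to 924, 551 to 663 and 663 to 1152 for macrophages, 1919 to 2209, 1817 to 1981 and 1686 to 1832 for endothelium, and 3782 to 4389, 4346 to 4593 and 4515 to 4892 for adipocytes. A sum follows the most abundant genes of its list. Of the 10 adipocyte genes tested in DCM compared to CK, 3 were higher and 7 lower, called or not. The part of these cell types in the results was not tested. Some genes that the naming rule took are not reported here.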

Additional observations from a re-analysis of the deposited data

How the results depend on the processing

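Of 480 member values recomputed, 424 kept their direction and side of the threshold, 29 lost the threshold, 1 gained it and 26 turned their direction. Of 957 values of named list genes, 21 turned. None of these 47 had an adjusted p below 0.05, as reported or after turning. By limma, DEGs among the members of DCM compared to CK numbered 0 with either pseudocount, and of SPM compared to CK 1 with a pseudocount of 1. With a fold change of 1.3 the DEGs were 2 in DCM compared to CK, 1 in SPM compared to DCM and 4 in SPM compared to CK. Leaving out each library gave 0 to 1, 0 to 0 and 1 to 2 DEGs in the same order, and 2 to 4, 0 to 2 and 3 to 6 members at an adjusted p below 0.05. The lowest values came without CK replicate 1, CK replicate 2 or DCM replicate 3 for the first DEG count, without CK replicate 2 for the last, and at the adjusted p without DCM replicate 3 (2 members), when DCM replicate 1, DCM replicate 2 or SPM replicate 2 was dropped (0 members), and in SPM compared to CK when SPM replicate 2 was dropped (3 members). In SPM compared to DCM, 1 member was left without SPM replicate 1 or SPM replicate 3, and 0 with the G and C offset. Among all genes, adjusted p-values below 0.05 in SPM compared to DCM numbered 2410 as reported, 444 with the offset and 751, 194 and 72 when DCM replicate 1, DCM replicate 2 or SPM replicate 2 was left out. The cause was not tested. No pairing of libraries by replicate number is labelled, and correlations over 3 libraries of each group cannot settle whether there was one. Deviations of same-numbered libraries correlated at -0.100 to 0.217, those of other numbers at -0.309 to 0.237, and 0, 0 and 3 of 6 libraries correlated best with their own number. A replicate block gave 1, 0 and 2 DEGs and 4, 2 and 5 members at an adjusted p below 0.05, and 1302, 2810 and 3826 calls among all genes, compared to 1497, 2410 and 3989 without it. The limma values on FPKM lie lower, with a median over all genes shifted by -0.09 in DCM compared to CK. By limma with a pseudocount of 0.1, the turned values were Pparg -0.0879, Rxra -0.0449, Esrra -0.0321, Ehhadh -0.0808, Lrpprc -0.0105 in DCM compared to CK and Lrpprc -0.0307 in SPM compared to CK. By limma with a pseudocount of 1, the turned values were Pparg -0.0785, Rxra -0.0435, Esrra -0.0318, Ehhadh -0.0760, Lrpprc -0.0102 in DCM compared to CK and Lrpprc -0.0302 in SPM compared to CK. With the G and C offset, the turned values were Tfam 0.0136 in DCM compared to CK, Ppard 0.0514, Ppargc1b 0.15, Rxra 0.0433, Esrrg -0.0403, Tfam -0.0186, Perm1 0.00823, Slc25a4 0.0228 in SPM compared to DCM and Rxra 0.0876, Nrf1 -0.0103, Tfam -0.0116 in SPM compared to CK. With a minimum of 1 CPM in 3 libraries, the turned values were Ppard 0.00464, Ppargc1b 0.000945 in SPM compared to DCM. Leaving out 1 library turned some results, with ranges of -0.10 to 0.11 for Pparg in DCM compared to CK, -0.0233 to 0.0936 for Ehhadh in DCM compared to CK, -0.12 to 0.0250 for Lonp1 in DCM compared to CK, -0.0234 to 0.15 for Ppara in SPM compared to DCM, -0.0577 to 0.0449 for Ppard in SPM compared to DCM, -0.20 to 0.00386 for Pparg in SPM compared to DCM, -0.0484 to 0.0231 for Ppargc1b in SPM compared to DCM, -0.0329 to 0.20 for Klf15 in SPM compared to DCM, -0.11 to 0.0309 for Lrpprc in SPM compared to DCM, -0.11 to 0.0479 for Slc25a4 in SPM compared to DCM, -0.44 to 0.46 for Vnn1 in SPM compared to DCM.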

Other observations

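Several partners of the regulators that the naming rule did not take passed the test in SPM compared to DCM. They are named here after their values were seen. In that comparison 18.5% of the 27 partners passed, compared to 16.6% of all genes. Prkaa2, the main catalytic subunit of AMP-activated protein kinase in muscle, which phosphorylates PGC-1 alpha, was measured at 80.7, 102.2 and 103.2 CPM in the control hearts. The DCM libraries held 87.8, 89.7 and 106.9 CPM, and those with spermine 124.7, 125.5 and 126.7 CPM. All SPM libraries lay above the other 6, and the log2 fold change of SPM compared to DCM was 0.41 ± 0.081 (SE, edgeR adjusted p = 0.0149). Gabpa, the DNA-binding subunit of NRF2 (GABP), another activator of respiratory genes, had a log2 fold change of 0.43 ± 0.10 (SE, edgeR adjusted p = 0.0238). Rxrb, a further dimer partner of PPARs, fell by 0.27 on the log2 scale in SPM compared to DCM (edgeR adjusted p = 0.0280) and by 0.42 in SPM compared to CK (edgeR adjusted p = 0.00193). Its 3 SPM libraries, at 46.94, 49.10 and 49.98 CPM, lay below the 63.6 to 66.3 CPM of CK. When SPM replicate 2 was left out, the edgeR adjusted p of SPM compared to DCM was 0.0676 for Prkaa2, 0.101 for Gabpa and 0.135 for Rxrb, with log2 fold changes of 0.41, 0.40 and -0.28, while Rxrb still passed in SPM compared to CK (edgeR adjusted p = 0.0183). With the G and C offset the log2 fold changes of SPM compared to DCM were 0.085 for Prkaa2, 0.13 for Gabpa and -0.054 for Rxrb (edgeR adjusted p = 0.545, 0.403 and 0.667), so all 3 calls were lost, and that of Rxrb in SPM compared to CK was -0.22 (edgeR adjusted p = 0.0458). The G and C content was 40.7% for Prkaa2, 41.4% for Gabpa and 61.4% for Rxrb.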
